A study of Arabidopsis thaliana with 8 samples.

Results

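Cysteine-rich receptor-like kinases (CRKs) are a large plant family of membrane proteins, and their transcripts were measured in leaves of wild-type and ABI3:MTA Arabidopsis thaliana. The members were 42 gene identifiers, CRK1 to CRK43 without CRK9, taken by name out of the 20690 genes listed in any library. In the RefSeq annotation 38 of them carry a CRK symbol, CRK1 is RKF2, CRK17 is EMB1290, and AT1G70740 and AT4G11500 have none and are called by their identifiers here. The measured values also entered the choice, since a member was tested only where 4 or more of the 8 libraries listed it at 3 or higher in the deposited values, and the family was taken up with results of the same libraries known. Its gene-by-gene results are therefore a description of these libraries.

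Poly(A) RNA came from leaves of 4-week-old plants of the Col-0 ecotype, leaves 5 to 9, harvested 4 hours into the light period and sequenced as strand-specific libraries. One group was wild type (WT), and the other was ABI3:MTA (mta), with 4 libraries each. MTA is the methyltransferase subunit that carries out N6-methyladenosine (m6A) modification of mRNA, and its complete loss arrests embryos. In ABI3:MTA plants the gene is supplied to a loss-of-function mutant from the embryo-active ABI3 promoter, so every mta library shares both the mutation and the transgene, and the promoter that drives the transgene is known for its activity in embryos. Soil-grown plants of both genotypes were kept at 22 °C in days of 16 light and 8 dark hours. Whether the 4 libraries of a genotype stem from different plants or from pools is not stated, so p-values rest on a spread that may be technical.

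A CRK carries an extracellular region with a pair of cysteine-rich DUF26 domains, a membrane-spanning helix and a serine/threonine kinase facing the cytoplasm. The family is known in leaves for transcripts that respond to pathogens, salicylic acid, ozone and abscisic acid, and several members act beside pattern-recognition receptors and the NADPH oxidases that make extracellular reactive oxygen. Most members lie in tandem arrays that arose by repeated duplication. WRKY transcription factors, many of them induced by the same signals, bind the W-box, written TTGACC or TTGACT.

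Members of the family were called in both directions, and with all libraries the lower share was near that of all tested genes. Of 35 tested members, 12 were higher in mta, 5 were lower and 18 did not pass the test. Over all 18328 tested genes 12.9% were higher and 13.3% were lower, against 34.3% and 14.3% of the tested members. The count of lower members moved with the libraries used, from 3 to 9 on leaving out 1. Without mta 4 it was 9 (25.7%, with 18.8% of all genes lower), and it was 3 (8.57%) without WT 2, WT 3, WT 4 or mta 2, where 8.69 to 9.44% of all genes were lower. The members that rose were CRK37, CRK38, CRK23, CRK6, CRK16, CRK26, CRK7, CRK8, CRK36, CRK5, CRK13 and CRK4, and those that fell were CRK10, CRK19, CRK41, CRK2 and CRK21. CRK26 was tested only because of its mta values. At least a 2-fold rise with a call was seen for 9 members, CRK26 among them, or 25.7% of those tested, against 3.12% of all genes. No member was called with a 2-fold fall, which 1.24% of all genes were. The median log2 fold change was 0.11 over the tested members and -0.02 over all tested genes. In bulk leaf RNA, fewer cells of a type and less RNA per cell cannot be told apart.

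The bases in front of the members with the highest and lowest log2 fold changes are shown because the family is known as a target of W-box-binding factors. Each sequence is the 250 bases upstream of the annotated gene start in the RefSeq annotation of TAIR10.1, on the plus strand, 5′ to 3′, and capitals mark every W-box on either strand. CRK37 lies at chr4:2238120-2238369, CRK38 at chr4:2241822-2242071, CRK10 at chr4:12137745-12137994 and CRK19 at chr4:12170705-12170954, where each range is the printed window.
CRK37: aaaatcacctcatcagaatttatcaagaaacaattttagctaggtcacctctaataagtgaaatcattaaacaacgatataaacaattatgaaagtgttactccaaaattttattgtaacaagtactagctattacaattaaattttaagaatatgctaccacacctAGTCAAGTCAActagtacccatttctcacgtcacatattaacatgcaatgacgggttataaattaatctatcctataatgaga
CRK38: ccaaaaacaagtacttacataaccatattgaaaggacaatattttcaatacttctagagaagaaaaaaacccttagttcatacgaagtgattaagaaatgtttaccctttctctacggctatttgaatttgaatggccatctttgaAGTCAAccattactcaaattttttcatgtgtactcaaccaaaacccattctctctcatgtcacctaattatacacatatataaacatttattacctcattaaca
CRK10: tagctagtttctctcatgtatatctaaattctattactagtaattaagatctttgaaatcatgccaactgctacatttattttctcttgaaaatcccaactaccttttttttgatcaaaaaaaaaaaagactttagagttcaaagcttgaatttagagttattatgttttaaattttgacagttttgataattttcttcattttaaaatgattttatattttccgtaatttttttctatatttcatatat
CRK19: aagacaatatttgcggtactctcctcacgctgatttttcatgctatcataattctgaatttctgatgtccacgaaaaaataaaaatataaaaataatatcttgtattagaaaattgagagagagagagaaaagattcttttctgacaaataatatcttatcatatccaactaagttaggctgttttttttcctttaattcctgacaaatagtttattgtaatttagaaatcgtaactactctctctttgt

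CRK37, the member with the largest rise among those tested, holds 2 W-boxes that share 1 base, from -83 to -78 and from -78 to -73 counted back from the gene start. CRK38, its neighbour on the chromosome, holds 1 from -104 to -99. All 3 read AGTCAA on the printed strand, the reverse complement of TTGACT. The windows of CRK10 and CRK19 hold none, which says only that these letters are not in those 250 bases.

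Across the family, 25 of 41 protein-coding members (61.0%) held a W-box in the same window, searched as TTGACC or TTGACT on both strands, as the other motifs were. The share was 28.4% of 27443 protein-coding genes. Among tested members the window held one for 9 of 12 that rose, 12 of 18 that did not pass the test and 1 of 5 that fell. W-boxes were thus common both in members that rose and in members that did not change detectably. Tandem duplicates share upstream sequence, so these windows are not independent and no test was made. TGACG, the core bound by TGA factors, stood in 12 of 41 members (29.3%) against 18.6% of all protein-coding genes. The G-box CACGTG stood in 1 of 41 members, CRK41, against 6.49%. A match is a stretch of letters, and binding was not measured.

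Before the single members, the libraries need describing. Taking the smallest step between deposited values as 1 read, gene totals per library were 17132897 to 25377345, and scaling factors ran from 0.867 to 1.09. Genotype was separated along the first principal component (51.8% of variance). Along the second (26.2%) WT 1 and mta 1 lay opposite mta 4. WT 1 was the lowest WT library for 31 of 35 tested members (88.6%), against 37.7% of all tested genes. In mta, mta 4 was the highest library for 22 of 35 members (62.9%, against 33.6% of all genes) and mta 1 the lowest for 17. Between WT 2 and WT 3 the chi-square per degree of freedom was 1.76, where the remaining pairs of 1 genotype gave 5.42 to 63.7. MTA itself was listed at 66.4, 84.7, 70.6 and 68.9 in WT and at 41.1, 61.2, 59.2 and 42.3 in mta. It was lower in mta (log2 fold change -0.52, SE 0.16, limma adjusted p = 0.030), a call lost without any of WT 2, WT 3, WT 4 and mta 1. ABI3 was listed in no library. Without WT 1, mta 1 and mta 4 together, 13 members were higher and 12 lower, the same 12 higher members among them, while 21.9% and 24.5% of all genes were called.

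**Figure D1:**
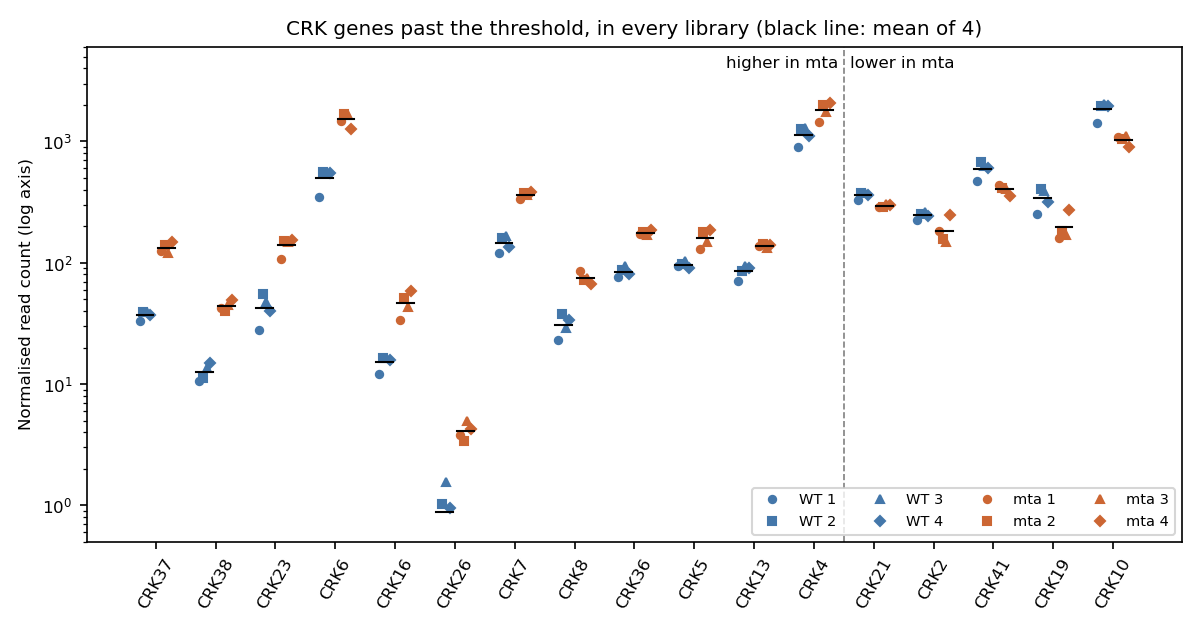
Normalised read count (log axis) of the 17 CRK members past the threshold, with 1 point for each of 4 WT (blue) and 4 mta (orange) libraries and a black line at the group mean; members run from the highest to the lowest log2 fold change. WT 1 of CRK26 was listed at 0 and is not drawn. The groups stand apart for all 12 members that rose, and the points of mta 4 for CRK2 and CRK19 reach into the WT range.

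CRK37, CRK38 and CRK36 are neighbours on chromosome 4 and all rose. CRK37 (AT4G04500) was at 32.9, 39.3, 39.0 and 36.9 normalised reads in the 4 WT libraries and at 125, 139.8, 121 and 147 in the 4 mta libraries. The lowest mta library was far above the highest WT library, and the rise was 3.53-fold (log2 fold change 1.82, SE 0.11, limma adjusted p = 2.10e-06). CRK38 (AT4G04510) had 10.5, 11.2, 13.6 and 14.8 in WT and 42.1, 40.2, 44.7 and 49.7 in mta. Again no mta library reached down to WT, with a 3.36-fold rise (log2 fold change 1.75, SE 0.15, limma adjusted p = 1.75e-05). CRK36 (AT4G04490) is known to act with ARCK1 in abscisic acid responses and to phosphorylate the immune kinase BIK1. Its values were 75.6, 86.8, 93.7 and 80.9 in WT and 172, 178, 168 and 186 in mta. All mta libraries lay above all WT libraries, at 2.08-fold (log2 fold change 1.06, SE 0.10, limma adjusted p = 3.70e-05). The next genes of that array, CRK39 and CRK40, did not pass the test, with log2 fold changes of -0.16 (SE 0.23) and 0.11 (SE 0.12).

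CRK6 and CRK7, neighbours known to protect leaves against extracellular reactive oxygen, rose together. CRK6 (AT4G23140) had 348, 562, 546 and 545 normalised reads in WT and 1474, 1667, 1653 and 1276 in mta. WT 1 was low among WT libraries, and mta 4 was the lowest mta library but still above all WT libraries. The rise was 3.07-fold (log2 fold change 1.62, SE 0.16, limma adjusted p = 4.91e-05). CRK7 (AT4G23150) had 119.7, 159, 166 and 135 in WT and 334, 375, 359 and 381 in mta. Its groups did not overlap either, and it rose 2.51-fold (log2 fold change 1.33, SE 0.12, limma adjusted p = 2.36e-05). The coding sequences of this pair are 82.9% identical. Of the 50-base words of CRK6, 19.6% occur elsewhere in the genome, against 0.82% of those of CRK7, so most repeats of CRK6 are not shared with CRK7. Reads with several alignments were left out, so reads from the repeated part of CRK6 may be missing from its values. CRK8 (AT4G23160), the next gene, had 23.0, 37.6, 29.0 and 33.7 in WT and 86.0, 72.4, 75.3 and 67.0 in mta. The mta libraries were all higher, at 2.42-fold (log2 fold change 1.27, SE 0.16, limma adjusted p = 2.24e-04), and 15.0% of its 50-base words are repeated.

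CRK4, CRK5 and CRK13 are members whose forced expression is known to trigger hypersensitive-like cell death or salicylic acid-dependent resistance. CRK4 (AT3G45860) was among the most abundant members, with 895, 1274, 1280.1 and 1106 normalised reads in WT and 1449, 1991, 1736 and 2058 in mta. WT 1 was the lowest library and the groups did not overlap, with a rise of 1.59-fold (log2 fold change 0.67, SE 0.15, limma adjusted p = 0.0065). CRK5 (AT4G23130) had 93.5, 97.9, 103 and 89.8 in WT and 131, 178, 148 and 185 in mta. The mta values spread more widely than the WT values but lay above them, at 1.65-fold (log2 fold change 0.72, SE 0.12, limma adjusted p = 0.0017). CRK13 (AT4G23210) had 71.2, 85.7, 93.1 and 90.7 in WT and 138, 142, 133 and 141 in mta. The mta libraries were close to each other and above WT, at 1.63-fold (log2 fold change 0.70, SE 0.11, limma adjusted p = 8.56e-04), while 14.2% of the 50-base words of CRK13 are repeated. CRK4, CRK6 and CRK36 are also known to strengthen pattern-triggered immunity when overexpressed, and all 3 rose. Not every member of such known function did: CRK19, whose induced expression is known to trigger cell death, fell (log2 fold change -0.81).

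CRK23, CRK16 and CRK26 also rose, from WT means of 42.5, 15.2 and 0.89 normalised reads. CRK23 (AT4G23310) had 27.8, 55.2, 47.1 and 39.7 normalised reads in WT and 107, 151, 148 and 154 in mta. mta 1 was the lowest mta library and still above WT, and the rise was 3.30-fold (log2 fold change 1.72, SE 0.20, limma adjusted p = 1.47e-04). CRK16 (AT4G23240) had 12.1, 16.3, 16.5 and 15.8 in WT and 33.8, 51.0, 42.7 and 59.0 in mta, a rise of 2.91-fold (log2 fold change 1.54, SE 0.18, limma adjusted p = 1.71e-04). No WT library reached the mta range, but the annotated spans of CRK16 and CRK17 overlap by 1190 bases on the same strand. These spans include introns, and the overlap of exons was not measured, so how many reads it affects is not known. CRK26 (AT4G38830) had 0, 1.02, 1.57 and 0.96 in WT and 3.83, 3.40, 4.93 and 4.25 in mta (log2 fold change 1.51, SE 0.32). CRK26 passed the filter through mta alone, with 0 WT libraries at a deposited value of 3 or more, so its difference was built into its being tested. With pseudocounts of 0.25 and 5 in place of 1 the same difference read 2.24 and 0.63.

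CRK10 was the member with the highest level per kb in WT and it fell in mta; a gain-of-function allele of this gene is known to dwarf plants. CRK10 (AT4G23180) had 1424, 1959.7, 2026 and 1945 normalised reads in WT and 1083, 1041, 1117 and 894 in mta. WT 1 was the lowest WT library but above every mta library, and CRK10 was 1.77-fold lower in mta (log2 fold change -0.82, SE 0.13, limma adjusted p = 9.64e-04). CRK41 (AT4G00970) had 468, 675, 623 and 601 in WT and 437, 413, 408 and 354 in mta. The groups did not overlap, and CRK41 was 1.46-fold lower (log2 fold change -0.54, SE 0.12, limma adjusted p = 0.0080). CRK19 (AT4G23270), whose induced expression is known to trigger cell death as that of CRK4 and CRK5 does, had 251, 407, 392 and 318 in WT and 161, 182, 168 and 274 in mta. mta 4 lay within the WT range and the other mta libraries below it, with a fall of 1.75-fold (log2 fold change -0.81, SE 0.19, limma adjusted p = 0.0100). The annotated span of CRK19 overlaps AT4G23271 by 102 bases and that of CRK10 overlaps CRK11 by 32, both on opposite strands, and the strand setting of the counting is not given in the sources used here. CRK10, CRK41 and CRK19 remained lower under all 20 alternatives in scaling, filter, model and libraries.

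CRK2 and CRK21 passed the threshold less firmly. CRK2 (AT1G70520), known to phosphorylate the NADPH oxidase RBOHD, had 223, 254, 260.3 and 245 normalised reads in WT and 181, 156, 148 and 248 in mta. Without mta 4, which lay within the WT range, the groups did not overlap, and CRK2 was 1.36-fold lower with all libraries (log2 fold change -0.45, SE 0.15, limma adjusted p = 0.047). Its call held in 9 of 20 alternatives and was lost on leaving out any 1 of WT 2, WT 3, WT 4, mta 1, mta 2 and mta 3. CRK21 (AT4G23290) had 329, 378, 379 and 361 in WT and 287, 285, 307 and 300.4 in mta, a difference of 1.22-fold without overlap (log2 fold change -0.29, SE 0.09, limma adjusted p = 0.029). That call held in 13 of 20 alternatives and was lost without WT 2, WT 3, WT 4 or mta 2. Genotypes did not overlap for 15 tested members, 12 higher and 3 lower, where 13.4% and 15.0% of all genes had no overlap in those directions. CRK26 is among the 12 and met the filter through its mta libraries alone, so nothing is read from its lack of overlap.

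The 18 tested members that did not pass the threshold had log2 fold changes from -0.51 (CRK34) to 0.33 (CRK24). CRK34 (AT4G11530) had 30.6, 36.3, 30.9 and 27.0 normalised reads in WT and 14.6, 22.2, 24.0 and 27.6 in mta (limma adjusted p = 0.069). CRK3 (AT1G70530), the neighbour of CRK2 on chromosome 1, had 173, 198, 215 and 178 in WT and 131, 136, 99.6 and 205 in mta (limma adjusted p = 0.090). In both genes 1 mta library, mta 4, stood highest and overlapped WT, and both passed the threshold without it, at -0.62 and -0.65. CRK17 (log2 fold change -0.31) and CRK12 (-0.20) also passed as lower without mta 4, and CRK11 (-0.13) and CRK17 did so without WT 1. CRK11, known to be induced by oxidative stress and salicylic acid, ranged over 207 to 309 in WT and 238 to 256 in mta. CRK28, known to associate with the flagellin receptor complex, ranged over 19.1 to 40.3 and 17.1 to 40.9. Its relative CRK29 ranged over 28.1 to 60.2 and 21.2 to 48.9, and the spans of these 2 genes overlap by 470 bases on the same strand. CRK14, CRK22 and CRK40 overlapped between the genotypes, and their log2 fold changes were 0.11, 0.05 and 0.11, with SEs of 0.10, 0.10 and 0.12. Of the 50-base words of CRK22, 14.3% are repeated.

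The rest of the members that did not pass the test spread over the whole range of levels. CRK18, the closest relative of CRK17 at 84.4% coding identity, ranged over 206 to 355 normalised reads in WT and 209 to 357 in mta (log2 fold change -0.10, SE 0.19). CRK15 ranged over 76.3 to 109 and 104 to 133 (0.27, SE 0.13), and CRK42, on chromosome 5, over 98.6 to 127 and 105 to 144 (0.17, SE 0.13). AT1G70740 varied little, from 173 to 184 in WT and from 156 to 173 in mta (-0.11, SE 0.09). Among the scarcer members CRK31 ranged over 18.2 to 24.3 and 22.3 to 26.6 (0.22, SE 0.14), and CRK24 over 12.1 to 19.9 and 15.0 to 25.0. CRK39 ranged over 9.49 to 13.4 and 6.96 to 13.8, and CRK40, its closest relative (86.9% coding identity), over 460.5 to 584 and 524 to 695. In each of these 8 genes the genotypes overlapped.

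The other 7 members were not tested. CRK1, CRK25, CRK33 and AT4G11500, the last annotated as a transcribed pseudogene, were listed in no library, where an unlisted gene is below a deposited value of 1. CRK27, CRK30 and CRK32 were listed but fell short of the filter. CRK27 came nearest, with 3 libraries at a deposited value of 3 or more, and its normalised values were 0, 3.73, 2.09 and 1.68 in WT and 2.09, 4.44, 1.97 and 3.99 in mta. Just inside the filter were CRK26, with 4 such libraries, and CRK20, with 8 and normalised values of 3.19, 6.44, 6.02 and 5.98 in WT and 5.22, 7.58, 4.27 and 6.65 in mta. CRK30 had 1 such library and CRK32 had 0. Of the 35 tested members, 34 had a deposited value of 3 or more in all 8 libraries, so their being tested did not depend on the genotype.

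**Figure D2:**
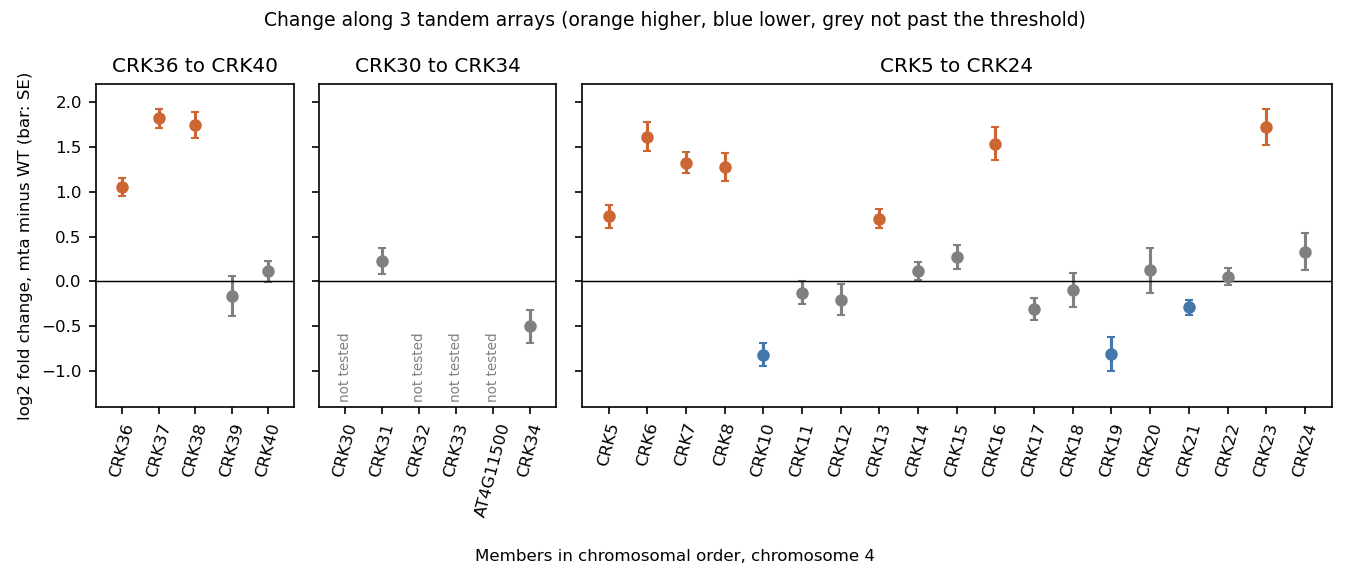
Log2 fold change (mta minus WT, bars SE) of CRK members in chromosomal order along 3 tandem arrays of chromosome 4, coloured by the call. CRK36, CRK37 and CRK38 rose beside CRK39 and CRK40, which did not pass the test. The long array from CRK5 to CRK24 begins with CRK5, CRK6, CRK7 and CRK8, which all rose. After them, members that rose, fell and did not pass the test are mixed.

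Members of 1 array moved in both directions. Of the 42 members 36 lie on chromosome 4, and 32 members are direct neighbours of another member. In the longest array, from CRK5 to CRK24, 19 members were tested, of which 7 rose, 3 fell and 9 did not pass. Over all tested genes 12.9% were higher and 13.3% were lower, so the falls in this array were near the general share. CRK5, CRK6, CRK7 and CRK8 stand together at its start and all rose, while CRK10, the next member, fell. In the array from CRK36 to CRK40, 3 of 5 tested members rose and 0 fell. In the array from CRK30 to CRK34, 2 of 6 members were tested and 0 were called, as for the pair CRK28 and CRK29. Closely related members also differed in call. CRK19 and CRK20, the pair with the highest coding identity among the members (89.8%), had log2 fold changes of -0.81 (SE 0.19) and 0.12 (SE 0.25), and CRK20 was near the filter. CRK16 and CRK24, 79.8% identical, had 1.54 (SE 0.18) and 0.33 (SE 0.21). These differences between members were not tested.

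**Figure D3:**
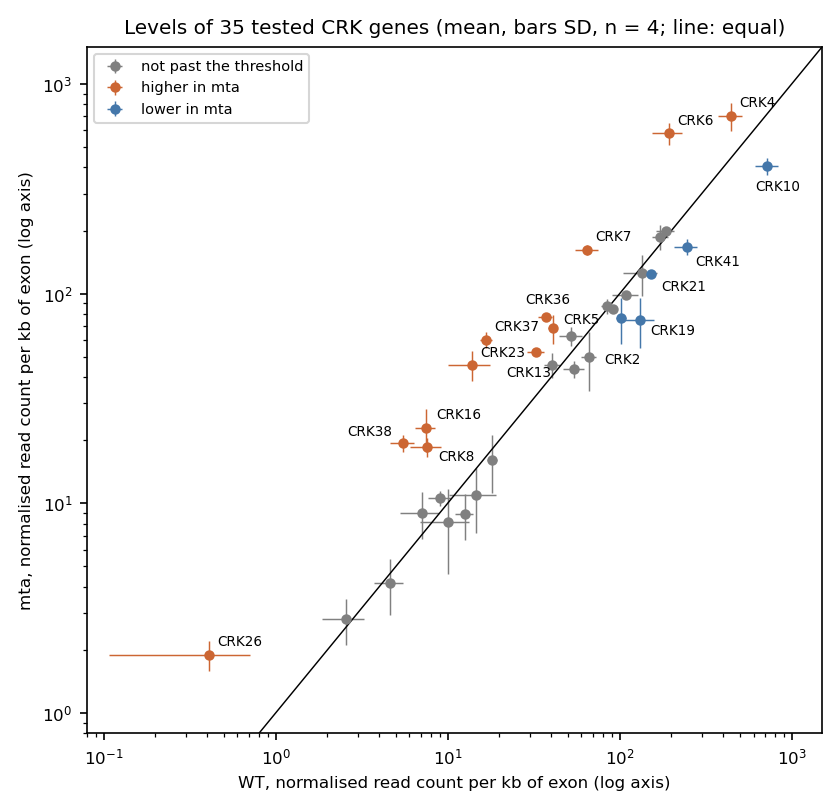
Mean normalised read count per kb of exon of the 35 tested CRK members in mta (vertical, log axis) against WT (horizontal, log axis), with bars of 1 SD over 4 libraries; the line marks equal levels, and members past the threshold are coloured and named. CRK10 leads in WT at 723 and CRK4 leads in mta at 705.

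Per kb of exon, the order of the levels changed at the top of the family. CRK10 was the highest member in WT, at 723 ± 109.6 normalised reads per kb (SD, n = 4), above 96.1% of all tested genes. CRK4 was the second at 444 ± 70.7, and the next places, CRK41 (245 ± 36.5) and CRK6 (193 ± 39.2), had SDs that overlapped. CRK6, CRK14 and CRK40 were not separated beyond their SDs in WT, at 193 ± 39.2, 186 ± 22.1 and 172 ± 17.6. In mta CRK4 stood first at 705 ± 108, CRK6 was the second at 584 ± 70.6 and CRK10 the third at 406 ± 38.5. The levels of CRK4 and CRK6 in mta were not separated beyond their SDs, and both lay above CRK10 by more than theirs. CRK41 moved from the third to the sixth place, CRK7 from place 15 to place 7 and CRK36 from place 20 to place 13. At the low end CRK20 (2.56 ± 0.71 in WT) and CRK26 (0.41 ± 0.30) were last in both genotypes.

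**Figure D4:**
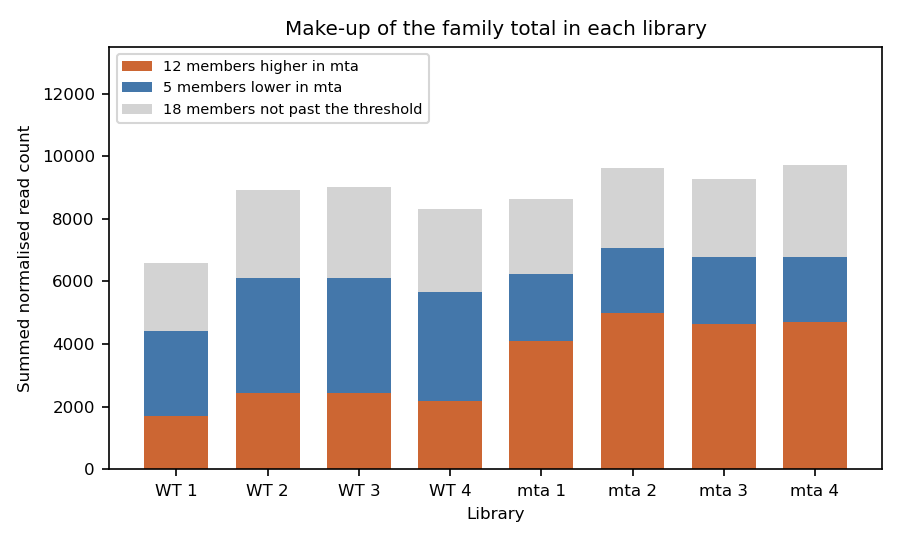
Summed normalised read count of the 35 tested CRK members in each library, split into the 12 members that were higher in mta, the 5 that were lower and the 18 that did not pass the threshold. With the members that were not tested added, the sums are 6601 to 9021 in WT and 8630 to 9728 in mta, and the orange share is larger in every mta library than in any WT library.

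The family total moved less than its make-up. Summed over all members, the normalised read count was 6601, 8933, 9021 and 8327 in WT and 8630, 9646, 9286 and 9728 in mta. WT 1 was the lowest library, and mta 1 lay within the range of the other WT libraries. The 12 members that rose held 25.9, 27.2, 26.9 and 26.3% of that total in WT and 47.5, 51.7, 49.9 and 48.4% in mta. CRK10 alone held 21.6 to 23.4% in WT and 9.19 to 12.5% in mta, and CRK6 held 5.27 to 6.54% and 13.1 to 17.8%. These shares describe members picked by the same comparison, so they carry no test.

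Genes that work beside the CRKs were read from short lists. Their counts stand beside 12.9% higher and 13.3% lower over all tested genes. Of 3 tested genes with other CRK numbers 1 rose, CRK45, the ARCK1 partner of CRK36, with 389.9 to 448 normalised reads in WT and 828 to 1171 in mta (log2 fold change 1.16, SE 0.12, limma adjusted p = 6.11e-05). CRK9, a neighbour of CRK8 and CRK10, had 631, 669, 672 and 766 in WT and 972, 992, 982 and 607 in mta (limma adjusted p = 0.119). Only mta 4 overlapped WT, and without it CRK9 passed as higher, which made 2 of the 3. Without mta 4, 17.4% of all tested genes were higher. Among the plasmodesmata-located proteins (PDLPs), which carry DUF26 domains without a kinase, 2 of 7 tested rose and 0 fell. They were PDLP2 (log2 fold change 0.47) and PDLP5 (0.47), and their calls depended on single libraries. No PDLP was called under the authors' scaling or without WT 3, mta 2 or mta 3, only PDLP5 without WT 2, and only PDLP2 without WT 4 or mta 1. Without mta 4, PDLP8 passed as well, which made 3 of 7, beside that 17.4% of all tested genes. Of 2 genes for secreted DUF26 proteins, AT3G22060 rose (log2 fold change 0.60, SE 0.09, limma adjusted p = 8.54e-04) and AT5G48540 did not pass (0.02). Medians of these lists were 0.48, 0.23 and 0.31, beside -0.02 for all tested genes.

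Receptor and oxidative burst partners gave calls in both directions. Of 15 tested, 2 rose and 7 fell, beside 12.9% higher and 13.3% lower over all tested genes. The rises were thus near the general share, and the median log2 fold change was -0.26. RBOHD, the NADPH oxidase of the pattern-triggered burst and the substrate of CRK2, had 1088, 1329, 1328 and 1354 normalised reads in WT and 749.8, 782, 811 and 630.0 in mta. No mta library reached the WT range (log2 fold change -0.78, SE 0.11, limma adjusted p = 5.66e-04). Its relative RBOHF had 63.5, 104, 104 and 88.8 in WT and 156, 207, 161 and 273 in mta and rose (log2 fold change 1.13, SE 0.20, limma adjusted p = 0.0021). CPK28, a calcium-dependent kinase that promotes turnover of BIK1, had 782 to 1031 in WT and 318 to 422 in mta (log2 fold change -1.34, SE 0.12, limma adjusted p = 2.53e-05). SOBIR1, a co-receptor kinase, also rose, by 0.32 on the log2 scale (limma adjusted p = 0.029), and lost its call in 9 alternatives, among them every removal of 1 library other than WT 1 or mta 4. The lower genes beside RBOHD and CPK28 were FLS2, CERK1, CPK5, PUB13 and XLG2, of which PUB13 lost its call without WT 3, WT 4 or mta 2 and XLG2 under every removal of 1 library other than WT 1 or mta 4.

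Of 10 WRKY genes that were read because their products bind W-boxes, 2 rose, 4 fell and 4 did not pass. The shares over all tested genes were 12.9% higher and 13.3% lower. WRKY60 rose (127 to 142 in WT, 238 to 351 in mta, log2 fold change 1.09, SE 0.12, limma adjusted p = 9.74e-05), as did WRKY54 (log2 fold change 0.36, SE 0.10, limma adjusted p = 0.021), whose call was lost under the authors' scaling, without WT 3, mta 1, mta 2 or mta 3, and with WT 2 and WT 3 averaged. WRKY40 (574 to 624 and 255 to 367, log2 fold change -1.01, SE 0.11, limma adjusted p = 1.22e-04), WRKY11, WRKY33 and WRKY18 fell. The call of WRKY18 was lost without WT 2, WT 3, mta 1, mta 2 or mta 3, and with WT 2 and WT 3 averaged. WRKY53 passed as lower under the authors' scaling, without WT 1 and with transcript length correction, and WRKY46 did so without mta 4. WRKY60 and WRKY40, close relatives, thus moved in opposite directions. The 3 pathogenesis-related genes PR1, PR2 and PR5, which mark salicylic acid responses, all rose, with log2 fold changes of 1.55, 2.34 and 2.52. All 3 were far above WT in every mta library. All lists, like the members, were chosen with results of these data known.

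Markers of leaf cell types were summed to see what moved beside the family. Their calls stand beside 12.9% higher and 13.3% lower over all tested genes. Leaf mesophyll markers, 4 of 4 listed, summed to 217353 to 274596 normalised reads in WT and 285650 to 488037 in mta, and 2 rose. Vascular markers, 8 of 8 listed, summed to 2488 to 2666 and 3157 to 3667, with 4 higher and 1 lower. Guard cell markers, 5 of 5 listed, summed to 347 to 390.4 and 386 to 518, with 2 higher and 1 lower. Epidermal markers, 6 of 6 listed, summed to 8299 to 9233 and 6982 to 11278, with 2 higher. On leaving out 1 library the counts of higher markers ran from 2 to 3 for mesophyll, from 2 to 5 for vasculature, from 0 to 2 for guard cells and from 1 to 2 for epidermis. The share of all tested genes called higher then ran from 8.6 to 17.4%. The sums of mesophyll and vascular markers did not overlap between genotypes, but single markers differed. The largest mesophyll marker, RBCS1A, had a mean of 135112 in WT and 251639 in mta. LHCB1.1 and RCA, of the same list, did not pass the test and overlapped between genotypes. ATHB8 was the vascular marker that fell. The part of these markers in the CRK differences was not tested. The root markers XTH14 and EXPA7, the flower marker AP3 and the seed markers CRA1 and OLEO1 were listed in no library. COBL9, SESA1, PI and AG stayed at or below 6.38 normalised reads in every library. AG, the only one of these tested, ranged over 2.09 to 2.87 in WT and 3.14 to 6.38 in mta; it met the filter through its 4 mta libraries, with 1 WT library at a deposited value of 3 or more, so nothing is read from its test.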

How the data were processed

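The unit of the deposited table is a signal: the authors' read counts after division by a library factor, without rows below 1, as the values themselves show. STAR 2.4.0, HTSeq, DESeq2 and the TAIR10 build are named in the submitters' processing notes. A gene missing from a library was taken as 0. Genes reaching 3 in 4 or more libraries were tested. Trimmed mean of M values factors (trims of 0.3 for M and 0.05 for A) gave the normalised read count. limma 3.58.1 (R 4.3.3) was fitted to log2(value + 1) of 18328 genes, with genotype alone and a variance trend, and Benjamini-Hochberg adjustment ran over all of them at 0.05. Log2 fold changes are mta minus WT on that scale, which understates low genes, and folds are their powers of 2. Reads outside features (4.92 to 5.97% of a library), ambiguous reads (0.359 to 0.406%) and reads with several alignments (6.06 to 9.07%) were left out. Annotation and sequences were read by locus identifier from RefSeq for TAIR10.1, a different release from TAIR10, with Biopython 1.88. The fit was tested on simulated data with noise drawn separately for each gene. Such noise lacks the differences shared across a library that were seen here, so that test does not cover them. The members, lists and alternatives were chosen with earlier results of these data known. The text may name every member, MTA, ABI3 and, of each list, the 3 genes with the smallest adjusted p or every gene of a count of 5 or fewer; FLS2, CERK1, CPK5, PUB13, XLG2 and PDLP8 were named after their values were seen. Figures were drawn with matplotlib 3.10.9.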

Additional observations from a re-analysis of the deposited data

Results flagged for a closer look

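In 9 of 72 sets of 4 libraries (the WT or the mta libraries of a tested member or of MTA) the highest or lowest library stood apart from the other 3 by more than Dixon's 95% critical value, where chance gives about 1 in 20 sets. WT 1 was the library that stood apart in 5 of them, each time as the lowest WT library. CRK6 was at 348 normalised reads in WT 1 and at 545 to 562 in the other WT libraries. CRK10 was at 1424 in WT 1 and at 1945 to 2026 in the others. CRK16 was at 12.1 in WT 1 against 15.8 to 16.5. CRK17 was at 134 in WT 1 against 179.7 to 185.7. CRK20 was at 3.19 in WT 1 against 5.98 to 6.44. These values of WT 1 lay below the other WT libraries in members that rose, fell and did not pass the test alike.

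mta 4 stood apart as the highest mta library for 2 members, CRK12 at 59.0 against 31.7 to 36.2 and CRK28 at 40.9 against 17.1 to 20.9. mta 1 was the lowest mta library for CRK23, at 106.6 against 148 to 154. WT 3 was the highest WT library for CRK24, at 19.9 against 12.1 to 12.9.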

How the results depend on the processing

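The 12 higher members remained the same in all 20 alternatives, except that CRK26 was untested with a filter of 10 (11 higher), and CRK42 joined them without WT 1, mta 1 and mta 4. Leaving out those 3 libraries gave 8498 called genes and 12 lower members (34.3%, with 24.5% of all genes lower). The count of lower members was 3 (8.57%) with upper-quartile factors, the replicate block or WT 2 and WT 3 averaged as 1 sample. In those settings 9.85, 12.3 and 9.58% of all genes were lower. Under the authors' scaling and with transcript length correction 7 members (20%) were lower, beside 23.2 and 17.7% of all genes. On leaving out 1 library the count of lower members ran from 3 to 9. CRK10, CRK19 and CRK41 remained lower throughout. Replicate numbers did not pair the libraries: deviations of same-numbered libraries correlated at 0.47, 0.08, -0.20 and -0.35. Under the authors' scaling the median log2 fold change of all genes was -0.16 and 71.8% of calls were lower, against 50.8%; with upper-quartile factors 38.5% were lower.

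Changes of sign occurred in members not past the threshold. Under the authors' scaling the log2 fold change was -0.024 for CRK14, -0.086 for CRK22 and -0.023 for CRK40. Leaving out 1 library, it ran from -0.0115 to 0.16 for CRK14, from -0.30 to 0.0025 for CRK18, from -0.10 to 0.22 for CRK20 and from -0.027 to 0.081 for CRK22. Without WT 1, mta 1 and mta 4 it was -0.077 for CRK20, -0.014 for CRK22, 0.25 for CRK39 and -0.013 for CRK40. The cause was not tested. The planned edgeR and DESeq2 count models were not run, because the deposited values are normalised. Low values limit CRK20 and CRK26, which stayed at or below 7.58 normalised reads.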
